A study of Homo sapiens with 2 samples.

Results

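The results concern transcript clusters that carry no gene name and whose signal differed at least 2-fold between 2 arrays of NCI-H446 cells. NCI-H446 is a long-used line from a human small cell lung carcinoma. A transcript cluster is a set of probes that the array design assigns to one transcribed locus. A cluster was taken when the platform probe table gave it no gene symbol, when the higher of its signals reached a floor, and when the log2 difference, MTA1 array minus control array, was at least 1 or at most -1. The floor was a log2 signal of 3.62, the median over all clusters of the mean of both arrays. Of 67528 clusters, 42204 had no symbol, 19275 of these reached the floor, and 321 met all conditions. The 321 clusters were chosen by the same signals and differences that are described here, so their differences are a description and support no test.

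One array measured total RNA of cells that stably carried a control vector, the other that of cells that stably carried an MTA1 overexpression plasmid. Both groups were the same line, grown in DMEM with fetal bovine serum. The sources used here do not say whether the stable cells were a clone or a pool. With 1 array per group there was no spread between replicates, and no difference below could be tested.

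MTA1 is a subunit of the NuRD complex, which joins histone deacetylation to chromatin remodelling and acts mostly, though not always, to lower transcription. Clusters without a symbol on arrays of this kind can stand for long noncoding RNAs, extensions or fragments of known genes, copies of repeated sequence, or predicted transcripts. The sources used here do not say which of these applies to any cluster below, and no role is assigned to them. The files held no probe sequence or coordinate for them. They are placed only by the chromosome in the identifier and by their order among named clusters.

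The labelled overexpression was visible in the cluster of MTA1, with log2 signals of 7.31 on the control and 9.82 on the MTA1 array, 5.71-fold higher. Among markers of neuroendocrine small cell lung cancer, UCHL1, INSM1 and ENO2 reached the floor, 3 of 7 measured, while SYP, CHGA, NCAM1 and GRP lay under it on both arrays. Of 4 other small cell lung cancer markers, YAP1, MYC and REST reached it, while POU2F3 lay under it at 3.17 and 3.22. So did 4 of 5 epithelial markers reach it, all but CDH1. Of markers of other cell types, 2 of 5 fibroblast genes and 1 of 6 blood or endothelial genes reached it, with PECAM1 the highest at 4.12 on the control array. The hybridisation controls added to each sample, bioB, bioC, bioD and cre, read 0.23 to 0.28 higher (log2) on the MTA1 array. Their part in the differences below was not tested, and the counts after removing that offset are given beside the totals. Some signals in the files exceeded 16, the log2 of the largest value a 16-bit scanner records, so the authors' values had passed through a further step that is not described, and fold sizes depend on it. None of the 321 clusters had a signal above 12.11.

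Of the 321 clusters, 122 were higher on the MTA1 array, which is 0.633% of the unnamed clusters at or above the floor, and 199 were lower, which is 1.03%. The rule fixed these counts and nothing is read from them alone. Among named clusters at or above the floor 0.301% were at least 2-fold higher and 0.332% lower by the same measure. Shifting every difference by the mean offset of the hybridisation controls, 0.24, turned the split of 122 higher and 199 lower into 58 higher and 462 lower, and moved the median difference of all clusters kept from -0.02 to -0.27. The shift lowers every difference, so more lower than higher clusters on that scale was fixed in advance and shows nothing. At a 3-fold threshold without the shift, 27 were higher and 26 lower.

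Most of the 321 differences lay near the threshold. The higher clusters had a median log2 difference of 1.22 and a largest of 4.49. Their control signals ran from 2.09 to 10.74 with a median of 4.22, and their MTA1 signals from 3.75 to 12.11 with a median of 5.61. On the control array 49 of the 122 were under the floor, so their folds are bounds. The lower clusters had a median difference of -1.19 and an extreme of -6.47. Their control signals had a median of 6.12 and ran from 3.76 to 11.71, against a median of 4.72 and a range of 2.70 to 10.52 on the MTA1 array, where 39 were under the floor. The plot of both signals shows the 2 bands along the threshold and the few clusters far from it.

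**Figure D1:**
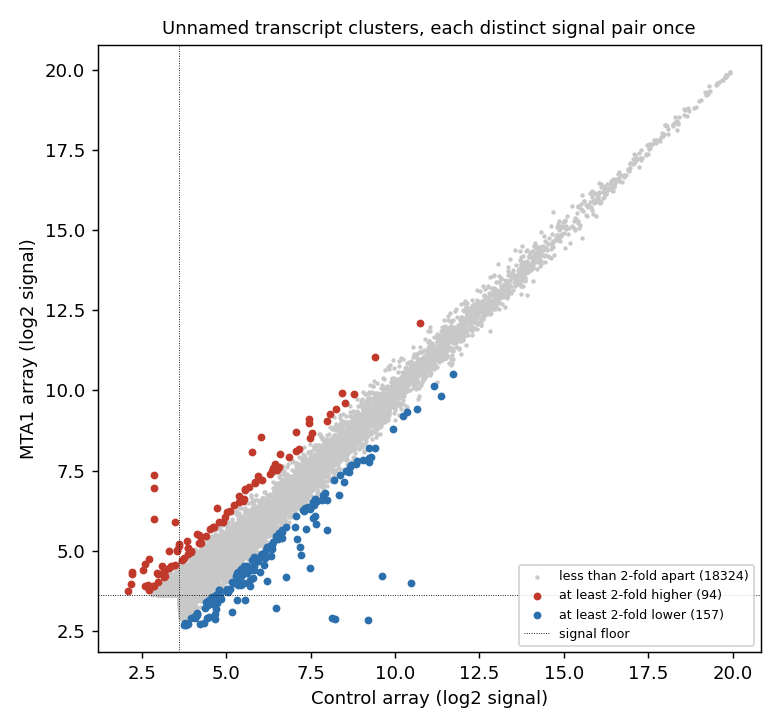
Log2 signal of unnamed clusters at or above the floor on the control array (x axis) and the MTA1 array (y axis), each distinct pair of signals once. Red points are the 94 distinct pairs at least 2-fold higher and blue points the 157 at least 2-fold lower, and dotted lines mark the floor of 3.62. The 5 blue points farthest from the diagonal have control signals of 8.13 to 10.47 and MTA1 signals of 2.85 to 4.23, and the 3 red points farthest from it have control signals of 2.86 to 2.87.

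Cluster TC09001672 was the nearest inside the threshold on the higher side, with signals of 4.25 on the control and 5.25 on the MTA1 array and a difference of 1.0005. Cluster TC15000167 was the nearest outside, with 8.59 and 9.59 and a difference of 0.9997. On the lower side TC01003084, at 5.35 and 4.35, differed by -1.0005, and TC01002744, at 5.27 and 4.27, by -0.99995. The next clusters inward were TC19002457, at 7.16 and 8.17, and TC08001816, at 7.08 and 6.08, and the next outward were TC02001958, at 5.58 and 6.58, and TC17000212, at 4.85 and 3.85. Nothing but the threshold separates these clusters. The floor removed little, since only 4 unnamed clusters with a 2-fold difference lay under it, 2 in each direction.

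The largest differences in either direction belonged to 3 clusters with consecutive identifiers on chromosome 1. TC01005828 had a log2 signal of 9.21 on the control and 2.85 on the MTA1 array, at least 48.4-fold lower when the MTA1 signal is set to the floor. TC01005829 went from 10.47 on the control array to 3.999 on the MTA1 array, 88.4-fold lower. TC01005830 had 9.62 and 4.23, 42.0-fold lower. These 3 clusters were bright on the control array and close to the floor on the MTA1 array, while the 3 identifiers before them and the 3 after, all unnamed, lay under the floor on both arrays. Their identifiers belong to a long series, after the named genes of both strands in each chromosome's numbering, in which no cluster has a symbol, so no named neighbour can be given. A named cluster of chromosome 1, that of the filaggrin gene FLG, had signals of 9.37 and 3.48. FLG was named after its values were seen, and any link to the 3 clusters was not tested.

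Clusters on chromosome 8 gave the next largest lower differences. TC08000112 had 8.22 on the control and 2.87 on the MTA1 array, at least 24.3-fold lower. Its neighbours did not share that size: the unnamed clusters just before it, TC08000110 and TC08000111, read 7.95 and 8.73 on the MTA1 array and differed from the control array by -0.05 and -0.01. The 5S ribosomal RNA pseudogene RNA5SP255, the next identifier, had 6.31 and 5.47, and C8orf48 had 3.91 and 2.94, both less than 2-fold lower. TC08001809, in the unnamed series of the numbering, had 8.13 and 2.90, at least 22.8-fold lower. The next identifier, TC08001810, had 4.09 and 3.25, less than 2-fold lower, and TC08001811 after it had 12.52 and 12.76.

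**Figure D2:**
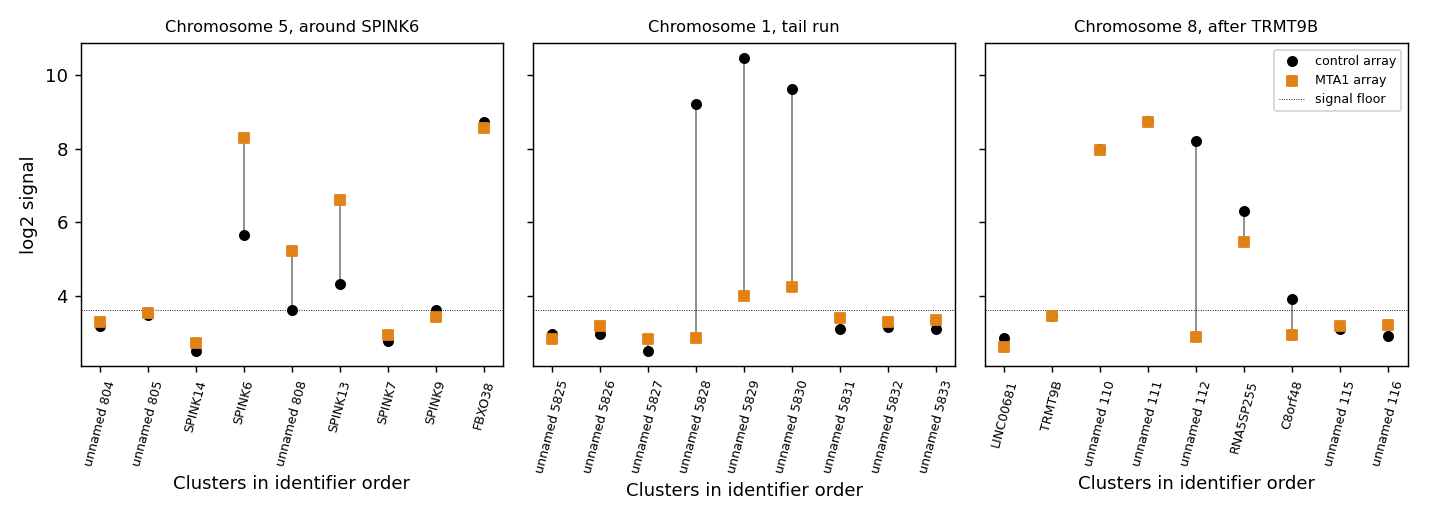
Log2 signal on the control array (black circles) and the MTA1 array (orange squares) for clusters in identifier order around SPINK6 on chromosome 5, around the run on chromosome 1 and after TRMT9B on chromosome 8, with a dotted line at the floor. On chromosome 5 the unnamed cluster 808 and its flanking genes SPINK6 and SPINK13 are all higher on the MTA1 array, on chromosome 1 clusters 5828 to 5830 are lower and their flanks lie under the floor, and on chromosome 8 cluster 112 alone is over 2-fold lower.

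The other lower clusters past 4-fold were spread over 6 chromosomes. TC21000335, near the long noncoding RNA genes LINC00158 and LINC00515, had 7.48 and 4.47, 8.03-fold lower, while those 2 neighbours differed by -0.24 and 0.25. TC21000884, in the unnamed series of the numbering, had 6.77 and 4.17, 6.05-fold lower. TC05001250, between SLC45A2 and RAD1, had 7.98 and 5.63, 5.08-fold lower. RAD1, a subunit of a DNA damage checkpoint clamp, read 9.37 and 9.12, a difference of -0.25. TC01005718 had 7.21 and 4.88, 5.03-fold lower, and TC15002176 had 7.18 and 5.12, 4.18-fold lower, both without named neighbours. TC01001519 lay next to ZBTB37, a zinc finger gene, and had 6.21 and 4.05, 4.49-fold lower, where ZBTB37 had 5.11 and 5.08. In none of these cases did the named neighbour differ 2-fold.

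Where the MTA1 signal was under the floor, the fold is a bound. TC16000928 lay between ACSM2B and ACSM1, members of the medium-chain acyl-CoA synthetase family, and had 5.18 on the control and 3.08 on the MTA1 array, at least 2.96-fold lower, with both genes under the floor on both arrays. TC18000225 lay between the phosphatase gene PHLPP1 and the serpin gene SERPINB5 and had 5.55 and 3.45, at least 3.83-fold lower. SERPINB5 was 0.54 higher (log2) and PHLPP1 0.26 lower, so the cluster followed neither in size. In the unnamed series of chromosome 15, TC15002593 had 6.46 and 3.23, at least 7.20-fold lower, and the identifier before it, TC15002592, had 5.32 and 3.45, at least 3.26-fold lower. These 2 form a run, and the clusters next to them, TC15002591 and TC15002594, differed by 0.10 and -0.25.

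By difference in log2 signal, 3 clusters of chromosome 15 came first among the higher ones, though each has only a bound on its fold. TC15001909 had a log2 signal of 2.86 on the control and 7.35 on the MTA1 array, at least 13.3-fold higher. TC15000503 had 2.86 and 6.95, at least 10.1-fold higher. TC15000672 had 2.87 and 5.99, at least 5.18-fold higher. Each was under the floor on the control array and well above it on the MTA1 array. The bound of TC15000672 is smaller than the 5.67-fold measured for TC01001739, given below. TC15000672 lay next to PML, which encodes the protein that organises PML nuclear bodies and read 6.30 on the control and 6.29 on the MTA1 array. TC15001909 lay among unnamed identifiers between RGMA and LETR1, and all 4 clusters on each side of it were under the floor on both arrays. TC15000503 lay among unnamed identifiers between C2CD4A and TLN2.

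Outside chromosome 15 the largest higher difference was that of TC01001739, with 6.03 on the control and 8.54 on the MTA1 array, 5.67-fold higher. It lay between the complement receptor genes CR1 and CR1L, both of which were under the floor on both arrays. TC05002939, in the unnamed series of its chromosome, had 5.77 and 8.07, 4.92-fold higher. TC01001599, between SWT1 and HMCN1, had 3.49 and 5.90, at least 4.88-fold higher, while SWT1 had 5.40 and 5.51 and HMCN1 lay under the floor. TC09001627, between MIR3154 and GOLGA2, had 2.71 and 4.74, at least 2.18-fold higher, and GOLGA2, a Golgi matrix gene, had 8.54 and 8.50. TC08001612, between MTSS1 and WASHC5, had 2.54 and 4.39, at least 1.71-fold higher. For the last 2 the bound is much smaller than the 4.09-fold and 3.61-fold ratios of the signals themselves, since the control signal was far under the floor.

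Many of the clusters did not carry a measurement of their own. Of the 321, 83 (25.9%) had signals identical to 5 decimals to those of another of the 321 on both arrays, in 13 sets, 6 higher and 7 lower. Of all unnamed clusters at or above the floor 4.94% shared both signals with another, and of named ones 3.35%. No named cluster held the pair of signals of any of the 321. Clusters of a set cannot be counted as separate observations, and the sources used here do not say whether they share probes. Counting each distinct pair once left 251 of the 321, with 94 higher (0.506% of the distinct unnamed pairs) and 157 lower (0.845%), against 0.276% and 0.339% of named ones. The gap between the unnamed and named shares was smaller on this count. These shares are not matched on signal, and the rule chose the clusters by the same values, so nothing is read from the gap.

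The largest set held 18 clusters with signals of 9.24 on the control and 7.88 on the MTA1 array, a difference of -1.36. Its members carried chromosomes 1, 4, 13, 18, 21 and Y and unplaced contigs in their identifiers, and 6 lay on chromosome 1, 3 of them between EMBP1 and SRGAP2B and 3 between NOTCH2 and RNU1-10P. The second set held 17 clusters with 5.29 and 4.22, a difference of -1.07, of which 13 were on chromosome 5 and 4 on chromosome 22. On chromosome 5 they lay between OCLN and PMCHL2, between SLC45A2 and RAD1, and between TAF9 and NAIP. On chromosome 22 their neighbours included the pseudogenes BCRP2 and BCRP3 and the gamma-glutamyltransferase gene GGTLC2. One value pair thus stood for 13 of the 28 lower clusters counted on chromosome 5.

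Smaller sets lay mostly within one chromosome. A set of 4 on chromosome 7, near NCF1B and NCF1C, had 10.65 and 9.43, a difference of -1.22. NCF1B and NCF1C are pseudogene copies of NCF1, which encodes a subunit of the phagocyte NADPH oxidase. A set of 3 on chromosome 22 had 6.12 and 4.90, and 2 clusters on chromosomes 8 and 10 had 5.12 and 3.81. On chromosome 6 a set of 3 had 5.86 and 4.72 and a set of 2 had 7.63 and 6.10. Only 2 sets outside chromosome 15 were higher on the MTA1 array. One, on chromosomes 9 and X, had 9.42 and 11.05, a difference of 1.64, and the other, 2 clusters of chromosome 16 near ABCC1 and PKD1P5, had 3.17 and 4.41.

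Chromosome 15 held 48 of the 122 higher clusters, 39.3%, though only 4.99% of the unnamed clusters at or above the floor were on it. Of its own 962 unnamed clusters at or above the floor, 4.99% were higher, against 0.404% of those outside it. Identical signals made up much of this count. Of the 48, 30 belonged to 4 sets, and 28 of the 48 lay under the floor on the control array. Counted as distinct pairs, 22 of 840 were higher on chromosome 15 (2.62%) against 72 of 17745 elsewhere (0.406%). Of lower clusters 12 of 962 (1.25%) were on chromosome 15 against 1.02% outside, or 1.43% against 0.817% of distinct pairs. Of the named clusters of chromosome 15, 3 of 571 were higher and 3 lower, 0.525% each. Removing the hybridisation control offset left 30 higher clusters there, and requiring both arrays at or above the floor left 20. Those 20 include a set of 11 with identical signals, described below. Centring the arrays on their medians left 35, since the difference of that set, 1.01, then fell to 0.99 and other clusters close to the threshold also dropped out.

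The 21 other numbered chromosomes and X each held 0 to 8 higher and 2 to 28 lower clusters. Chromosome 21 had none higher and 9 lower of 312, 2.88%, the highest lower share, and 4 of the 9 belonged to the set of 18. Chromosomes 6 and 11 had 8 higher clusters each, the most outside chromosome 15. Chromosome 5 had 28 lower clusters, or 16 distinct pairs, and chromosomes 1 and 6 had 20 each. The bars by chromosome show the most higher clusters on chromosome 15 in both ways of counting. Many of its distinct pairs were under the floor on the control array and passed the filter only through the MTA1 array. Nothing is therefore read from that count. With both arrays required at or above the floor, 20 of the 73 higher clusters were on chromosome 15, the set of 11 with identical signals included.

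**Figure D3:**
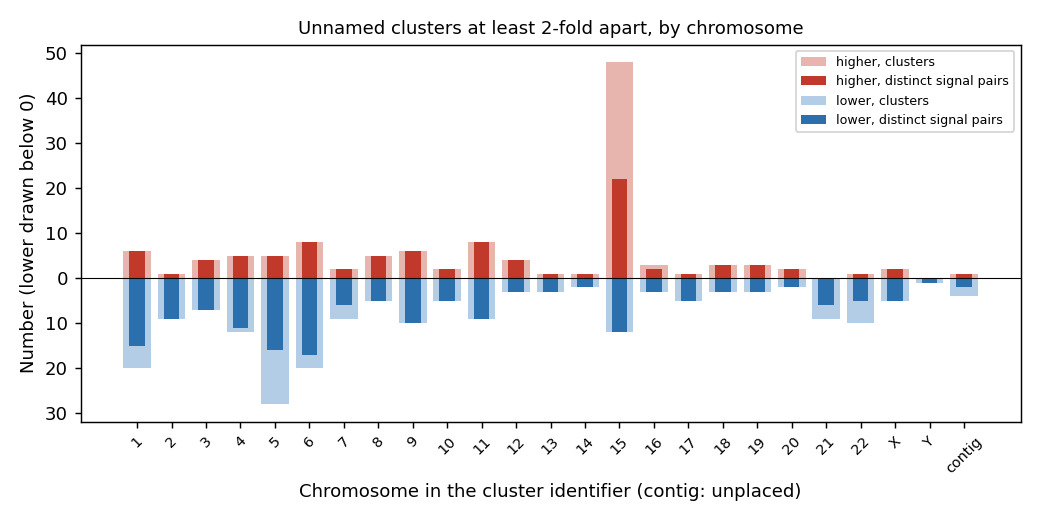
Number of unnamed clusters at least 2-fold higher (red, above 0) or lower (blue, below 0) on the MTA1 array by chromosome, as clusters (pale bars) and as distinct signal pairs (dark bars). Chromosome 15 has 48 higher clusters in 22 distinct pairs, and every other chromosome has at most 8.

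The 4 identical sets of chromosome 15 were all higher on the MTA1 array. The first held 11 clusters with 6.495 on the control and 7.51 on the MTA1 array, a difference of 1.01. The second held 10 clusters with 3.54 and 5.04, the third 5 clusters with 2.21 and 4.33, and the fourth 4 clusters with 3.30 and 5.00. The last 3 pairs start under the floor, so their folds are bounds, at least 1.64-fold for the set of 5. The sets of 11, 5 and 4 lay scattered over both strands of the numbering, many next to duplicated genes and pseudogenes such as HERC2P9, WHAMMP2, WHAMMP3, GOLGA6L6 and several GOLGA8 copies, with others near single genes such as MEF2A and NUTM1. A GOLGA8 copy, one of a golgin-related family repeated along the long arm of this chromosome, was a nearest named neighbour of 10 of the 48 higher clusters (20.8%) and of 58 of 619 unnamed clusters at or above the floor there (9.37%), or 4 and 37 distinct pairs. GOLGA8 neighbours were looked at after the values were seen.

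The set of 10 lay in a single place. All of its members fell among the 40 unnamed identifiers that follow TARS3, a threonyl-tRNA synthetase gene, at the end of the minus-strand numbering of chromosome 15. Of those 40, 16 reached the floor and 11 were at least 2-fold higher, the set of 10 and TC15002024, which had 6.07 and 7.19. The 16 had a median difference of 1.501, which is the value of the set itself. These 11 clusters therefore amount to 2 distinct measurements.

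**Figure D4:**
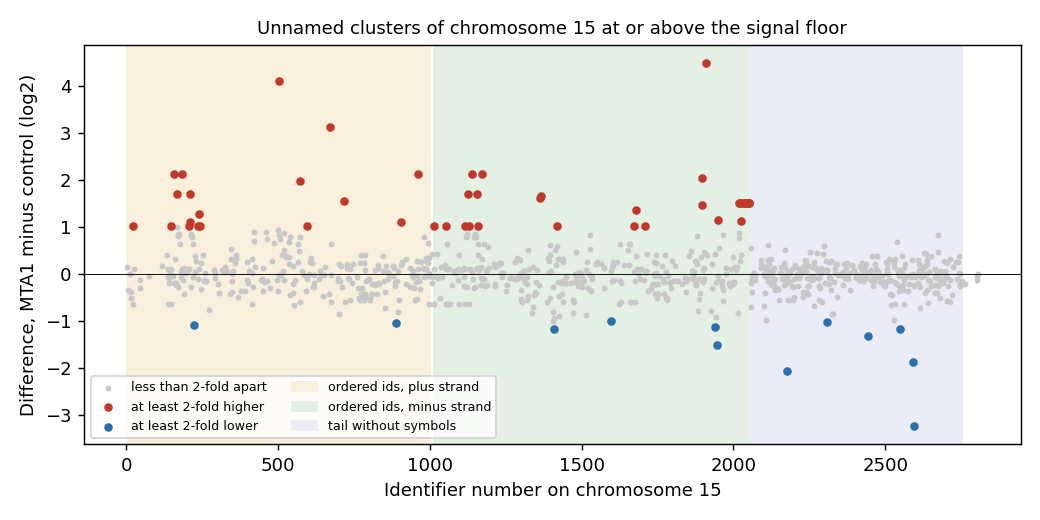
Difference, MTA1 minus control (log2), of unnamed clusters of chromosome 15 at or above the floor against the number in the identifier, with shading for the plus-strand numbering, the minus-strand numbering and the unnamed series. Red points, at least 2-fold higher, lie in both strand sections and none in the unnamed series, where 6 of the 12 lower clusters (blue) lie, and the row of red points at 1.501 near the end of the minus-strand section is the set of 10 with identical signals.

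The numbering carries position. Within a chromosome, identifiers first run through plus-strand genes and then through minus-strand genes. Of named clusters in the first section whose strand was known 99.6% were on the plus strand, and in the second 99.8% were on the minus strand. Where strands were known, the boundary between the sections was set where it best divided them. These shares were therefore partly fixed in advance. Successive named clusters stood in ascending order in 98.5% and 98.7% of pairs. A long series of 22723 clusters without any symbol follows, whose order was not checked against the genome. After it comes a short series of 1867 clusters, of which only 204 have no symbol and none is among the 321. The ordered sections held 211 of the 321 clusters, 100 on the plus and 111 on the minus strand, 2 lay between them, 5 on contigs and 103 in the unnamed series.

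The 103 clusters of the unnamed series, 31 higher and 72 lower, were all distinct in signal. They made up 0.329% and 0.764% of the 9424 unnamed clusters at or above the floor there. In the ordered sections, with the clusters between them included, the shares were 0.946% higher and 1.29% lower, or 0.696% and 0.943% of distinct pairs. All identical sets lay outside the unnamed series. Beyond those already named, the largest differences there were those of TC17002233, with 4.66 and 2.86, and TC04002840, with 7.45 and 9.11, at 3.16-fold higher. The brightest of all 321 clusters, TC06002615, with 10.74 on the control and 12.11 on the MTA1 array, also lay there. These 3 were picked after their values were seen.

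Long stretches without a symbol held a large share of the ordered clusters. The ordered sections have 29 stretches of at least 20 consecutive identifiers without a symbol, and 18 of them held clusters of the 321. Of 498 unnamed clusters at or above the floor in such stretches, 38 were higher (7.63%) and 15 lower (3.01%). Outside them it was 0.582% and 1.19% of 8942. Of the 38, 25 lay under the floor on the control array and so passed the filter only through the array on which they were high, as did 17 of the 52 higher clusters outside. With both arrays required at or above the floor, a setting chosen after seeing the data, 13 of 384 were higher in the stretches (3.39%) and 35 of 7809 outside (0.448%). Identical sets account for part: as distinct pairs, 14 of 155 were higher in the stretches of chromosome 15 (9.03%), 12 of 306 in those of other chromosomes (3.92%), and 10 of 358 in the rest of the ordered numbering of chromosome 15 (2.79%). Some of the 12 on other chromosomes, such as TC11001599 and TC09001251, were under the floor on the control array. So were most of the 14 on chromosome 15, such as TC15000503 and TC15001909. The count with both arrays at or above the floor was not split by chromosome. Nothing is therefore read from the share in the stretches, on chromosome 15 or away from it. The minimum of 20 identifiers was chosen after the numbering was seen.

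The stretches differed among themselves. The longest, 124 identifiers between CHST1 and FREY1 on chromosome 11, had 57 at or above the floor, 4 higher and 2 lower. TC11001599 had 2.19 on the control and 3.95 on the MTA1 array, a bound of at least 1.26-fold, and TC11001615 had 4.21 and 5.26, 2.07-fold higher. The 97 identifiers between C2CD4A and TLN2 on chromosome 15 had 33 at or above the floor, and the 2 higher ones were TC15000503, given above, and TC15000571, with 2.60 and 4.58. The 78 between CYP19A1, the aromatase gene, and DMXL2 had 3 higher and 1 lower of 30, among them TC15001363 next to CYP19A1 with 4.73 and 6.34. The 27 between RGMA and LETR1 had 3 higher of 11, TC15001909, TC15001895 with 2.23 and 4.27, and TC15001897 with 3.55 and 5.01. The 73 between ITPR3 and PACSIN1 on chromosome 6 had 2 higher and 1 lower of 36. Among the 21 between NOTCH2 and RNU1-10P all 3 were lower and belonged to the set of 18. In 11 of the 29 stretches no cluster was past 2-fold. The clusters singled out in these stretches, TC15002024 included, were picked after their values were seen, other than those that led the whole list or formed runs.

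Some of the 321 had consecutive identifiers. Runs of at least 2 members with adjacent numbers held 36 clusters in 15 runs, 29 of them lower and 7 higher. The 321 were 1.67% of the unnamed clusters at or above the floor. How many would be adjacent if scattered at that share was not computed. In 7 runs, with 17 members, all signals were identical, and 8 runs with 19 members held more than 1 pair of signals. Beside the run of 3 on chromosome 1 and the pair on chromosome 15 given above, TC22001201 had 5.70 and 4.08 and TC22001202 had 6.66 and 5.41, both lower. On chromosome 6 the 4 clusters TC06001379 to TC06001382 lay between GUSBP2 and LARRPM, the first at 7.63 and 6.10 and the other 3 at 5.86 and 4.72. On chromosome 5 TC05001250, given above, was followed by TC05001251 of the set of 17. Of the 8 runs with more than 1 pair of signals, 7 had all members differing in the same direction, and in the 7 runs of identical signals the direction could not differ.

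The higher runs were all on chromosome 15. TC15000209 had 3.30 and 5.00 and TC15000210 had 8.52 and 9.62. TC15000238 had 6.495 and 7.51 and TC15000239 had 5.84 and 7.11. TC15002050 and TC15002051 belonged to the set of 10. In one run the directions were opposed: TC11001699, in the stretch between CHST1 and FREY1, had 2.97 on the control and 4.01 on the MTA1 array, and TC11001700 had 4.67 and 3.59. Of the runs of identical signals, TC01001058 and TC01001059 belonged to the set of 18. TC05000312 to TC05000315, TC05000322 to TC05000324, TC05001444 with TC05001445, TC05001451 with TC05001452, and TC22000114 with TC22000115 belonged to the set of 17.

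Named neighbours of the 211 ordered clusters mostly did not differ. Taking the nearest cluster with 1 gene symbol on each side gave 410 pairs, and in 280 the neighbour reached the floor. The neighbour was past 2-fold in 3 of these pairs (1.07%), against 0.636% for the 12260 such pairs of unnamed clusters less than 2-fold apart. The median size of the neighbour's difference was 0.118 on the log2 scale for both. The neighbour differed in the same direction in 165 of the 280 pairs, and in 6351 of the 12260. With each distinct pair of signals of the 321 counted once, 183 pairs had a neighbour at or above the floor. Of these, 3 had one past 2-fold (1.64%), 101 ran in the same direction, and the median size was 0.128. A named neighbour was the adjacent identifier for 77 of the 211. A named neighbour past 2-fold was the exception, and it occurred for 2 clusters.

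The first is TC05000808 on chromosome 5, with log2 signals of 3.60 on the control and 5.21 on the MTA1 array, at least 3.02-fold higher. It lies between SPINK6 and SPINK13, both members of the Kazal family of serine protease inhibitors, whose products are secreted. SPINK6 had 5.65 and 8.28, 6.18-fold higher, and SPINK13 had 4.32 and 6.62, 4.91-fold higher. Thus 3 adjacent identifiers were higher together. SPINK14 just before them and SPINK7 and SPINK9 just after lay under the floor on both arrays, and FBXO38 beyond them had 8.72 and 8.57. Whether the unnamed cluster is a transcript of its own or belongs to one of its neighbours cannot be told from these files.

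The windows around the starts of the 2 flanking genes are shown because the 3 clusters were higher together. They come from RefSeq, build GRCh38.p14, plus strand, 300 bases each around the gene start, at chr5:148202528-148202827 for SPINK6 and chr5:148268544-148268843 for SPINK13. Capitals mark a TGAGTCA, the core letters bound by AP-1 factors, and they start 67 bases before the gene start.
SPINK6: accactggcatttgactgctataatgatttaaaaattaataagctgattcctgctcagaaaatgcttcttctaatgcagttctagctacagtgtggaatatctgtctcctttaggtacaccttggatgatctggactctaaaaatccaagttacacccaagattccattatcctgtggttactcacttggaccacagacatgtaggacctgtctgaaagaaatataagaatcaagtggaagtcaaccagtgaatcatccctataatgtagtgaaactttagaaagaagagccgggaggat
SPINK13: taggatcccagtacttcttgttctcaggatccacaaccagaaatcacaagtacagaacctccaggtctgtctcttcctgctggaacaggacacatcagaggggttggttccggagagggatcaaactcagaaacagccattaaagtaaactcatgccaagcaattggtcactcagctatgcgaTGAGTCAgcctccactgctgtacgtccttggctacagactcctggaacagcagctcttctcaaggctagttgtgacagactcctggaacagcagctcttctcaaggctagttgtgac
TGAGTCA, the E-box CACCTG and the TATA letters TATAAA were searched on both strands, and TGAGTCA was chosen after the windows were read. The SPINK13 window held 1 TGAGTCA and neither of the others, and the SPINK6 window shown held none of the 3. A further SPINK6 window, at chr5:148202792-148203091, was searched, is not shown and also held none of them. Of 35116 such windows 4.95% held TGAGTCA, 20.6% CACCTG and 11.5% TATAAA. No window could be given for TC05000808 itself.

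The second is TC04000102 on chromosome 4, with 4.23 on the control and 5.24 on the MTA1 array, 2.01-fold higher. Its nearest cluster with 1 gene symbol on one side, 9 identifiers away, was USP17L6P, a pseudogene of the USP17 deubiquitinase family, with 4.57 and 5.78. Clusters with several symbols were not taken as neighbours, so a named cluster may lie nearer. On the other side, 1 identifier away, USP17L21 of the same family had 3.34 and 3.66. The USP17 copies are near-identical, so their probes may not separate them, and the cluster is uncertain for that reason.

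The search was also run from the named clusters. Of 90 named clusters with 1 symbol that were past 2-fold, 87 had unnamed clusters within 5 identifiers, in 381 pairings. In 185 pairings the unnamed cluster reached the floor. An unnamed cluster near several of the named ones counts once for each. Of the 185, 78 differed in the direction of the named cluster, and 6 pairings (3.24%) involved one of the 321. Of all unnamed clusters at or above the floor in the ordered sections, those between the sections included, 2.24% belong to the 321. That background counts clusters and not pairings, and the share of pairings is close to it. TC05000808 gave 2 of them. ITGA11, an integrin collagen receptor, had 8.06 and 5.25, 7.02-fold lower, and TC15001597, 4 identifiers on, had 4.79 and 3.78, 2.01-fold lower. The other 3 ran in opposite directions: MIR548F5 had 4.06 and 5.35 and TC0X000949 4.10 and 2.96, MIR649 had 3.37 and 4.39 and TC22000525 6.12 and 4.90, and MIR190A had 4.37 and 2.99 while TC15000571 had 2.60 and 4.58. Genes in these pairings were named after their values were seen.

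MIR190A, which lies in the numbering just after TLN2, is shown by its mature products because it and TC15000571, 5 identifiers apart, ran in opposite directions. The array cluster measures RNA of the locus, not the mature products. The sequences are RefSeq's, GRCh38.p14, plus strand, at chr15:62823971-62823992 and chr15:62824008-62824028, with capitals for the seed, bases 2 to 8.
hsa-miR-190a-5p: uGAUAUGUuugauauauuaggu
hsa-miR-190a-3p: cUAUAUAUcaaacauauuccu
TLN2, the talin gene that holds this miRNA, had 6.59 on the control and 6.74 on the MTA1 array.

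One cluster lay beside a gene that missed the threshold by little. TC09000592 had 5.84 on the control and 4.78 on the MTA1 array, 2.09-fold lower. The next identifier, PAPPA, which encodes a metalloprotease that cleaves insulin-like growth factor binding proteins, had 11.71 and 10.71, a difference of -0.997 that falls just short of 2-fold. The unnamed TC09000594 on its other side had 9.44 and 8.85. PAPPA and this cluster were singled out after their values were seen. All 3 adjacent identifiers were lower, and the next ones out, TC09000591 and TC09000595, lay under the floor on both arrays.

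The share past 2-fold varied with signal, as the plot by signal shows. Unnamed clusters were dimmer than named ones, with a median mean signal of 4.74 against 6.67 among those at or above the floor, and their differences were wider, with an SD across clusters of 0.357 against 0.249. Of unnamed clusters 92.1% were less than 1.5-fold apart, of named ones 96.9%. By the higher of the 2 signals, the share of distinct unnamed pairs past 2-fold was 0.269% from the floor to 4, 2.25% from 5 to 6, 2.81% from 6 to 8 and 0.55% at 10 and above. Named clusters gave 0.108%, 0.816%, 0.689% and 0.663% in the same ranges. The unnamed share was above the named one in every range but the brightest. Array noise at a given signal cannot be told apart from a difference between the cells with 1 array per group.

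**Figure D5:**
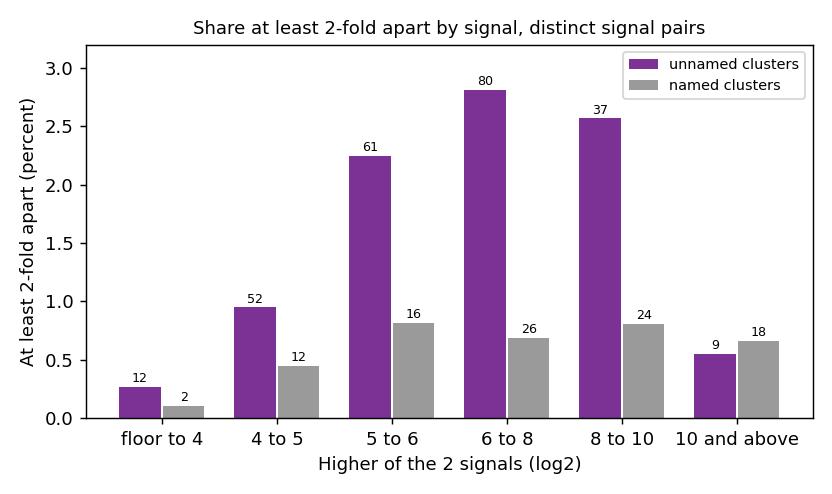
Percent of distinct signal pairs at least 2-fold apart by the higher of the 2 log2 signals, for unnamed (purple) and named (grey) clusters at or above the floor, with the number past 2-fold above each bar. The unnamed share is largest from 6 to 8, at 2.81%, and falls below the named share only at 10 and above.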

How the data were processed

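RNA of NCI-H446 cells with a control vector or an MTA1 plasmid was hybridised to Affymetrix arrays, 1 per group, per the labels. The authors deposited log2 signals, and the submitters' processing notes name RMA. The sources used here give no software version, annotation release or array build. Values were used without further normalisation. Samples were grouped by their labels.

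Of 67528 transcript clusters, 23781 had 1 symbol in the platform probe table and 1543 had several. By gene identifier 21497 took the current RefSeq symbol (GRCh38.p14). The control array lacked 1 value, an unnamed cluster that was left out. Where 1 array was under the floor, the fold was computed against the floor. Array number limits the precision, and no test was run.

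The clusters, neighbour rules and lists were chosen with earlier results of these data known. The text names the 15 largest differences in each direction, every run member, clusters with a 2-fold nearest neighbour, those nearest the threshold, their named neighbours and MTA1; others are marked as picked after their values were seen. The counting steps were tested on simulated data. Alternatives changed the scaling, floor, fold and definition of unnamed. Python 3.11.15, numpy 2.4.6, pandas 2.3.3, matplotlib 3.10.9, R 4.3.3 and limma 3.58.1 were used.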

Additional observations from a re-analysis of the deposited data

Results flagged for a closer look

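The array also reports exon regions and junctions, which the comparisons above do not use. Of 1465 such features, 1455 reached the floor, and by the 2-fold threshold 2 were higher and 20 lower on the MTA1 array, 1.51% in all. Of all transcript clusters at or above the floor, 1.19% were at least 2-fold apart either way, and of the unnamed ones 1.67%. The share among exon regions and junctions is close to these, and nothing is read from it. These features were singled out because they show differences in data outside the transcript clusters. They are not linked to any unnamed cluster in the files, and with 1 array per group there is no level of variation between control samples to set them against.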

How the results depend on the processing

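The main limits are the single array per group, the undescribed step behind signals above 16, and the sets of identical signals. No paired analysis was possible because each group has 1 array. Direction says nothing of stability here, since every cluster differs by more than the scalings tried shift it. The 66 picked by the naming rule moved by less than 0.267, the SD between clusters of a gene, under quantile normalisation and loess. Removing the control offset shifts every difference by 0.245, and centring by a smaller constant. Under these scalings a move below 0.267 was fixed in advance and shows nothing. Counts moved more, from 122 higher, 199 lower, 36 in runs, 2 with a like neighbour and 48 higher on chromosome 15. In that order, where over 1.5 times off: with the hybridisation control offset removed, 58, 462 and 58 in runs, and 30 on chromosome 15; with the floor at percentile 75, 61, 121, 13, 0 and 21; at 1.5-fold, 620, 908, 199, 26 and 98; at 3-fold, 27, 26, 5, 1 and 16. With both arrays required at or above the floor, 73 were higher, 1 had a like neighbour and 20 were on chromosome 15. Allowing up to 4 clusters between run members gave 73, and counting identical pairs once gave 17 in runs and 22 on chromosome 15. Quantile normalisation gave 138 higher and 174 lower, and loess 137 and 176. Of the 321, 296 met the rule under quantile normalisation, 298 under loess, 303 with arrays centred, 257 with the control offset removed, 233 with both arrays at or above the floor, 182 at percentile 75 and 53 at 3-fold. The causes were not tested beyond what each setting changes by construction. Close to the floor the signal limits what a difference can show.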
